A study of Macaca mulatta with 4 samples.

Results

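The core and naive pluripotency factors are the transcription factors and chromatin proteins that keep early embryonic cells able to form all tissues of the body. A list of 9 such genes was looked up by Ensembl macaque gene identifier in a table of 21314 genes, and 8 had a row, each with 1 identifier: POU5F1, NANOG, SALL4, TFCP2L1, ESRRB, KLF4, DPPA2 and DPPA4. PRDM14 was not analysed here. All 8 passed the filter on low counts and were among the 13227 genes tested. The RNA came from rhesus macaque (Macaca mulatta) morulae, compacting balls of cells that precede the blastocyst. Per the series text, the AG genotype is androgenetic, with nuclear chromosomes from the father only, and the GG genotype is gynogenetic, with nuclear chromosomes from the mother only. Each genotype had 2 libraries, with no treatment named. The labels give no age, strain or method of making the embryos, and the extraction protocol speaks of 2 morula samples per tube without making clear how many embryos entered a library. Nothing says that replicates came from separate parents, and p-values therefore reflect only how far these libraries vary, some of which may be technical.

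In the embryo, POU5F1 (OCT4) and NANOG sit at the centre of a network in which each factor binds the regulatory DNA of the others and holds the differentiation genes in check. Around this core, TFCP2L1, ESRRB, KLF4 and PRDM14 belong to the naive state, the condition of the epiblast before implantation, whereas DPPA2 and DPPA4 bind each other and keep the promoters of early embryonic and developmental genes open. Several of these factors are active well before the epiblast exists, in the cleaving embryo, and some are also made in the trophectoderm, the outer layer that forms the placenta.

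Total counts were 14129529 to 29733897 per library, and both AG libraries were shallower than both GG libraries. Levels are in CPM, a gene's counts per 1000000 of a library's tested counts after TMM scaling. CPM takes no account of transcript length, so levels are compared between libraries and not between genes. The AG libraries correlated less with each other across genes (Spearman 0.931) than the GG libraries did (0.968). Deposited counts of NANOG and SALL4 were not whole numbers in any of the 4 libraries, those of KLF4 in 2 and that of DPPA2 in 1, as happens where an estimate divides reads between features, and the size of that part was not analysed here. POU5F1, TFCP2L1, ESRRB and DPPA4 had whole counts throughout.

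GG morulae had more TFCP2L1, DPPA2 and ESRRB RNA than AG morulae, and less DPPA4. These 3 increases and 1 decrease passed an adjusted p of 0.05 (edgeR quasi-likelihood test over all genes), and the other 4 factors, POU5F1, NANOG, SALL4 and KLF4, did not. Over all tested genes, 12.9% were called, 6.34% as higher in GG and 6.58% as higher in AG. The GG and AG libraries did not overlap for 7 factors, against 64.1% of tested genes. These were 5 factors with GG above (33.4% of tested genes) and 2 with AG above (30.7%). NANOG was the factor whose groups overlapped. The median log2 fold change of the 8 factors, GG minus AG, was 0.80, beside 0.04 for all tested genes.

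**Figure D1:**
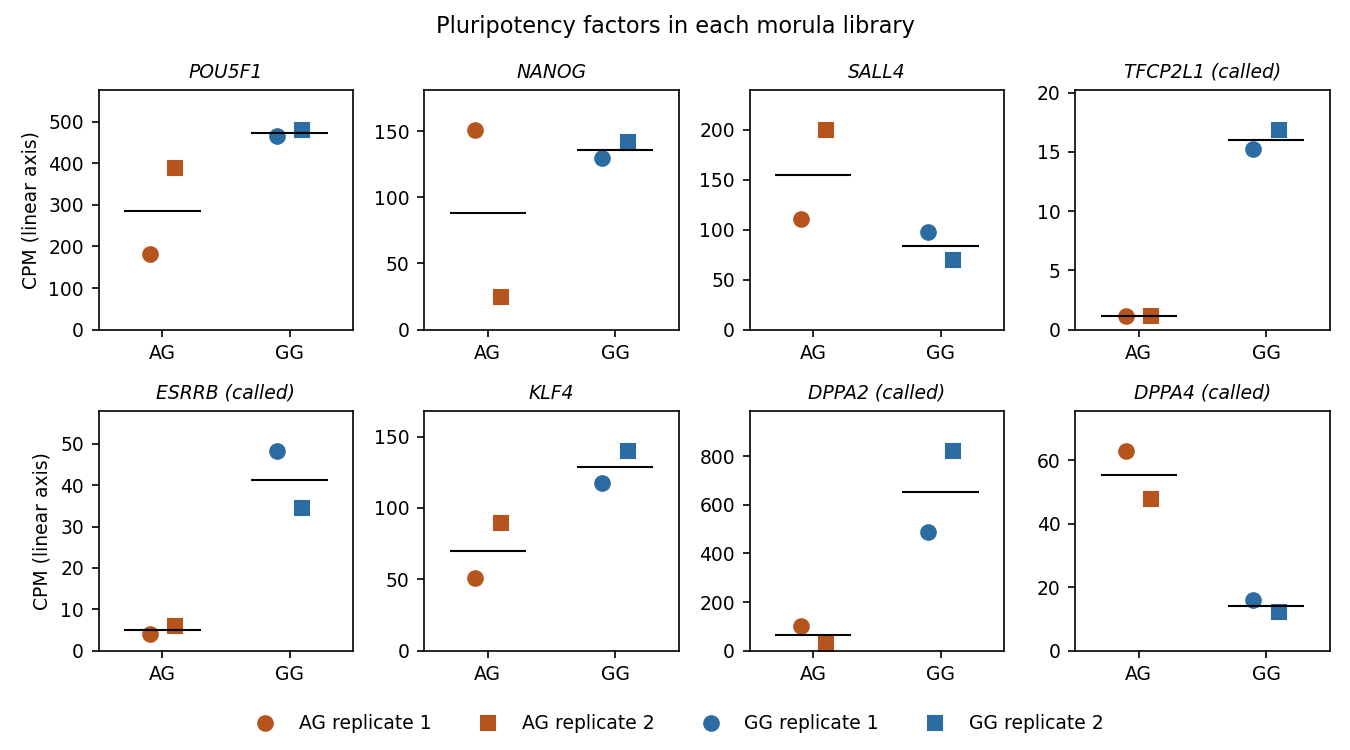
Level of each factor in CPM (linear axes that start at 0) in the 2 AG and 2 GG libraries, with circles for replicate 1, squares for replicate 2 and a line at the group mean. NANOG at 25.0 CPM in AG replicate 2 lies far below its other 3 libraries, while TFCP2L1 stays near 1 CPM in both AG libraries and at 15.2 and 16.8 CPM in GG.

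The factors called changed with the library left out. Without GG replicate 1 or GG replicate 2, when the spread comes from the AG pair alone and the lone GG library is assumed to vary like it, 0 of 8 factors were called. Among all tested genes 0.907% and 0.522% were then called with edgeR, and DESeq2 was not run on these fits. Without AG replicate 1, 6 factors were called (17.6% of all genes), NANOG and SALL4 being added. Without AG replicate 2, 6 factors were also called (29.8% of all genes), and the additions were POU5F1 and KLF4.

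POU5F1 (ENSMMUG00000015688), which encodes OCT4, the factor on which the pluripotent state of the inner cell mass depends, had at least 2540 counts in each of the 4 libraries. It stood at 181 and 389 CPM in AG (replicates 1 and 2) and at 465 and 479 CPM in GG replicates 1 and 2. Both GG values lay above both AG values, but AG replicate 2 was closer to GG than to AG replicate 1. The log2 fold change was 0.73 ± 0.39 (SE; 95% interval -0.23 to 1.69; adjusted p = 0.256). Without AG replicate 2 it was 1.36 and called (adjusted p = 0.00794), and without AG replicate 1 it was 0.28 and not called, within a range of 0.00794 to 0.581 over 11 alternatives.

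NANOG (ENSMMUG00000032158), the homeodomain factor that marks the epiblast founder cells, had 2113 counts in AG replicate 1, 493 in AG replicate 2, and 2724 and 4146 in the GG libraries. In CPM these were 151 and 25.0 for AG and 129 and 141 for GG. AG replicate 1 was the highest of the 4 libraries and AG replicate 2 the lowest. AG replicate 1 exceeded AG replicate 2 by 6.01-fold (95% binomial interval 5.45 to 6.64, which covers counting error only), whereas the GG libraries differed by 1.09-fold (1.04 to 1.15). The log2 fold change of 0.63 ± 0.77 (95% interval -1.27 to 2.52) was not called (adjusted p = 0.619). Without AG replicate 1 it was 2.43 and called (adjusted p = 0.00663), and without AG replicate 2 the sign turned, at -0.18 (adjusted p = 0.601), within a range of 0.00663 to 0.848 over 11 alternatives.

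SALL4 (ENSMMUG00000003870), a zinc finger protein that acts with the NuRD deacetylase complex and supports POU5F1 expression, had its higher values in AG. It stood at 111 and 199 CPM in AG (replicates 1 and 2) and at 97.3 and 70.2 CPM in GG. The groups did not overlap, although AG replicate 1 and GG replicate 1 were near each other. The log2 fold change was -0.89 ± 0.38 (95% interval -1.83 to 0.05; adjusted p = 0.171). Without AG replicate 1 it was -1.25 and called (adjusted p = 0.0330, in a range of 0.0330 to 0.587 over 11 alternatives). SALL4 had the opposite sign to POU5F1 in all 11 alternatives, but these reuse the same libraries. Neither gene was called with all 4 libraries.

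TFCP2L1 (ENSMMUG00000008829), a CP2-family factor of naive pluripotency, was low in AG and higher in GG. It had 16 and 23 counts in AG (replicates 1 and 2) and 321 and 493 counts in GG. These correspond to 1.14 and 1.17 CPM in AG and 15.2 and 16.8 CPM in GG, with the smallest gap between AG replicates of the 8 factors. TFCP2L1 was 13.9-fold higher in GG by group means, with a log2 fold change of 3.79 ± 0.48 (95% interval 2.599 to 4.978; adjusted p = 0.0159). The value was 3.77 and 3.78 without AG replicate 1 or 2, and the call ended without GG replicate 1 or 2 (adjusted p = 0.0923 and 0.115, the highest of alternatives that began at 4.22e-10 with DESeq2).

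ESRRB (ENSMMUG00000016773), an orphan nuclear receptor of naive cells that is also known from mouse trophoblast stem cells, moved the same way. It stood at 4.13 and 5.84 CPM in AG (replicates 1 and 2) and at 48.2 and 34.4 CPM in GG. Its lowest GG library was well above its highest AG library. ESRRB was 8.28-fold higher in GG by group means (log2 fold change 3.04 ± 0.41; 95% interval 2.03 to 4.06; adjusted p = 0.0176). Without GG replicate 1 or 2 the call ended (adjusted p = 0.117 and 0.106), within a range that began at 5.86e-10.

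KLF4 (ENSMMUG00000006088), a Krüppel-like factor used with POU5F1 to reprogram somatic cells, was not called. It stood at 50.7 and 89.3 CPM in AG (replicates 1 and 2) and at 118 and 140 CPM in GG. As with POU5F1, both GG values were above both AG values and AG replicate 2 was the nearer of the AG libraries. The log2 fold change was 0.88 ± 0.36, with a 95% interval of -0.01 to 1.76 (adjusted p = 0.159). Without AG replicate 2 it was 1.32 and called (adjusted p = 0.0192, in a range of 0.0192 to 0.565).

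**Figure D2:**
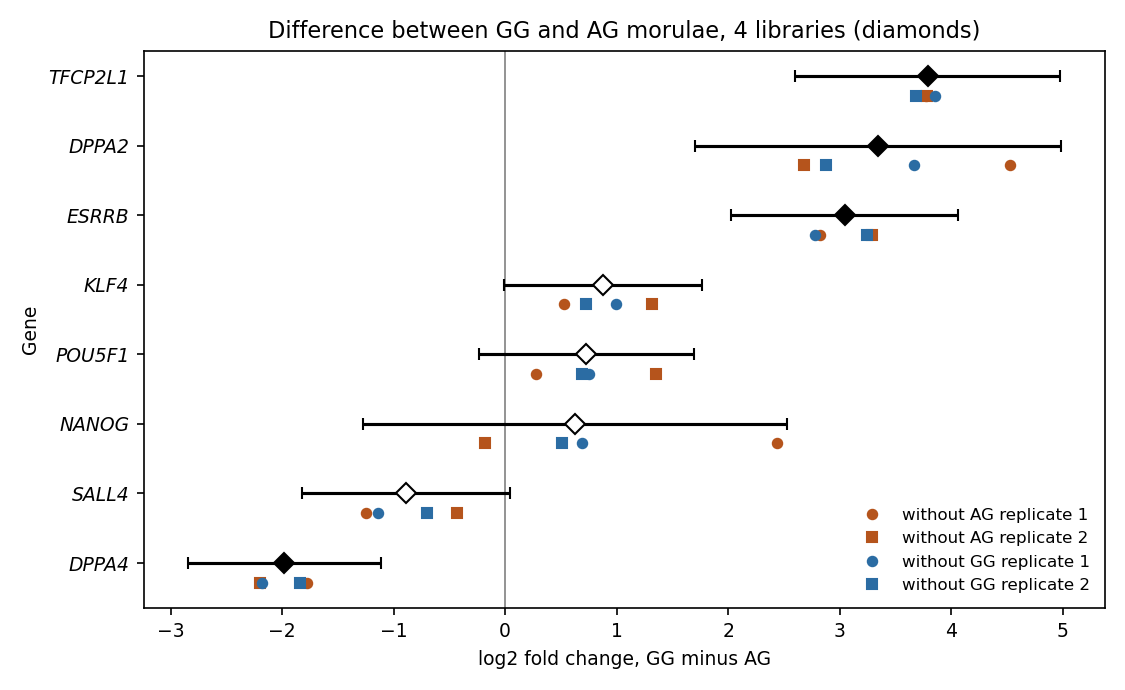
Log2 fold change, GG minus AG, of each factor from all 4 libraries (diamonds, filled where called) with 95% intervals, and the same value with 1 library left out (small circles and squares). For NANOG the values without an AG library run from -0.18 to 2.43, whereas those of TFCP2L1 without any 1 library stay between 3.69 and 3.86.

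DPPA2 and DPPA4 differed in opposite directions. They are paralogs with a SAP DNA-binding domain that work as a heterodimer, and they neighbour each other with 0 annotated genes between them in the RefSeq gene table of assembly T2T-MMU8v2.0, used here for gene order only. DPPA2 (ENSMMUG00000022112) stood at 101 and 28.4 CPM in AG (replicates 1 and 2) and at 488 and 820 CPM in GG. Every GG library exceeded every AG library, although the replicates also differed, by 3.55-fold in AG (95% binomial interval 3.21 to 3.92) and by 1.68-fold in GG (1.64 to 1.72). DPPA2 was 10.1-fold higher in GG by group means (log2 fold change 3.34 ± 0.66; 95% interval 1.70 to 4.99; adjusted p = 0.0348). Leaving out AG replicate 1 gave 4.53 and leaving out AG replicate 2 gave 2.68, both called.

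DPPA4 (ENSMMUG00000016901) had 62.8 and 47.9 CPM in AG (replicates 1 and 2) and 15.8 and 12.2 CPM in GG. The AG libraries were both above the GG libraries, and each pair was close. DPPA4 was 3.95-fold higher in AG by group means (log2 fold change -1.98 ± 0.35; 95% interval -2.85 to -1.12; adjusted p = 0.0281). Without GG replicate 1 or 2 both calls ended, with adjusted p-values of 0.0940 and 0.161 for DPPA2 and 0.162 and 0.218 for DPPA4, in ranges that began at 2.16e-06 and 1.39e-05 with DESeq2.

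Because these genes are counted in the same library, the ratio of their counts does not depend on how libraries are scaled. AG replicate 1 had 1413 counts of DPPA2 and 881 of DPPA4, and AG replicate 2 had 559 and 943. GG replicate 1 had 10277 counts of DPPA2 and 333 of DPPA4, and GG replicate 2 had 24061 and 357. The ratio of DPPA2 to DPPA4 was therefore 1.60 (95% binomial interval 1.47 to 1.75) and 0.593 (0.533 to 0.659) in AG, and 30.9 (27.7 to 34.5) and 67.4 (60.7 to 75.0) in GG. The mean log2 ratio was -0.04 in AG and 5.51 in GG, a difference of 46.8-fold. All GG ratios exceeded all AG ratios. A two-sided exact permutation test over the 4 libraries gave p = 0.333, the smallest value that 2 libraries against 2 allow.

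**Figure D3:**
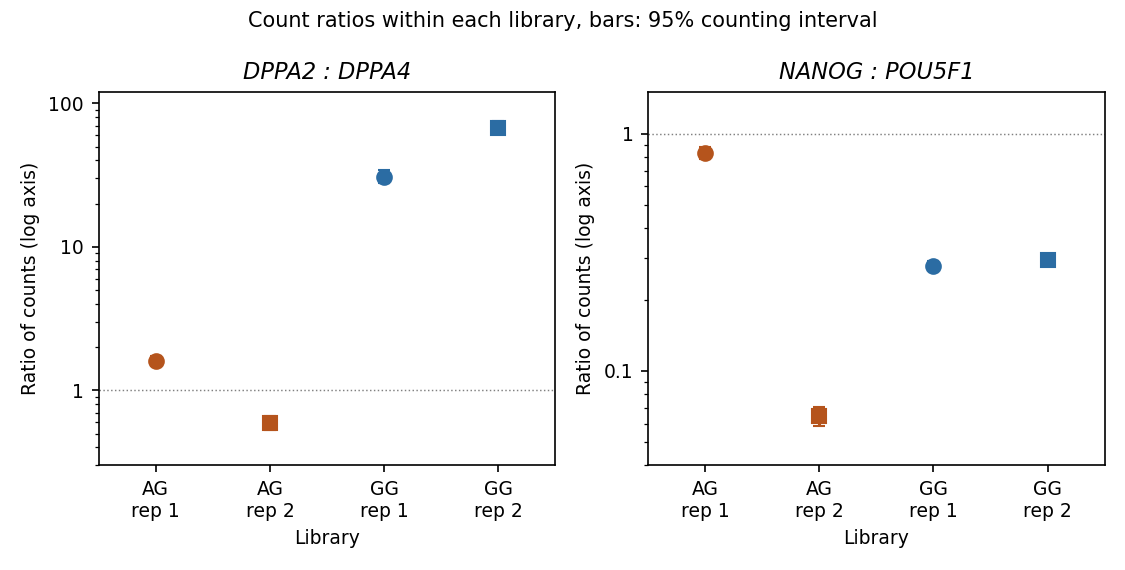
Ratio of counts within each library (log axes) for DPPA2 to DPPA4 and for NANOG to POU5F1, with bars for the 95% binomial interval, which covers counting error only. The DPPA2 to DPPA4 ratio lies at 0.593 and 1.60 in AG and at 30.9 and 67.4 in GG, while the NANOG to POU5F1 ratio has the AG libraries on either side of the GG libraries.

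The ratio of NANOG to POU5F1 counts, chosen after the values were seen, differed more between the AG libraries than between the GG libraries. It was 0.832 (95% binomial interval 0.785 to 0.882) in AG replicate 1 and 0.0644 (0.0586 to 0.0705) in AG replicate 2. In GG replicates 1 and 2 it was 0.278 (0.266 to 0.290) and 0.295 (0.285 to 0.305). The GG values were close to each other and lay between the AG values.

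Across the 8 factors, AG replicates differed in both directions. NANOG, DPPA2 and DPPA4 were higher in AG replicate 1, and POU5F1, SALL4, KLF4, ESRRB and TFCP2L1 were higher in AG replicate 2. For TFCP2L1 the interval of the ratio included no difference (0.482 to 1.93), and its sign turned with DESeq2 size factors or upper-quartile scaling. The gap between AG replicates exceeded 1 on the log2 CPM scale for 3 factors, namely NANOG (2.58), DPPA2 (1.82) and POU5F1 (-1.10), and for 30.2% of all tested genes. Between GG replicates it did so for 0 factors and for 15.9% of all tested genes. The median size of the AG gap was 0.83 over the 8 factors and 0.59 over all tested genes, and that of the GG gap was 0.31 and 0.36. NANOG's AG gap was at the 94.5 percentile of all tested genes and its GG gap at the 21.4 percentile.

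**Figure D4:**
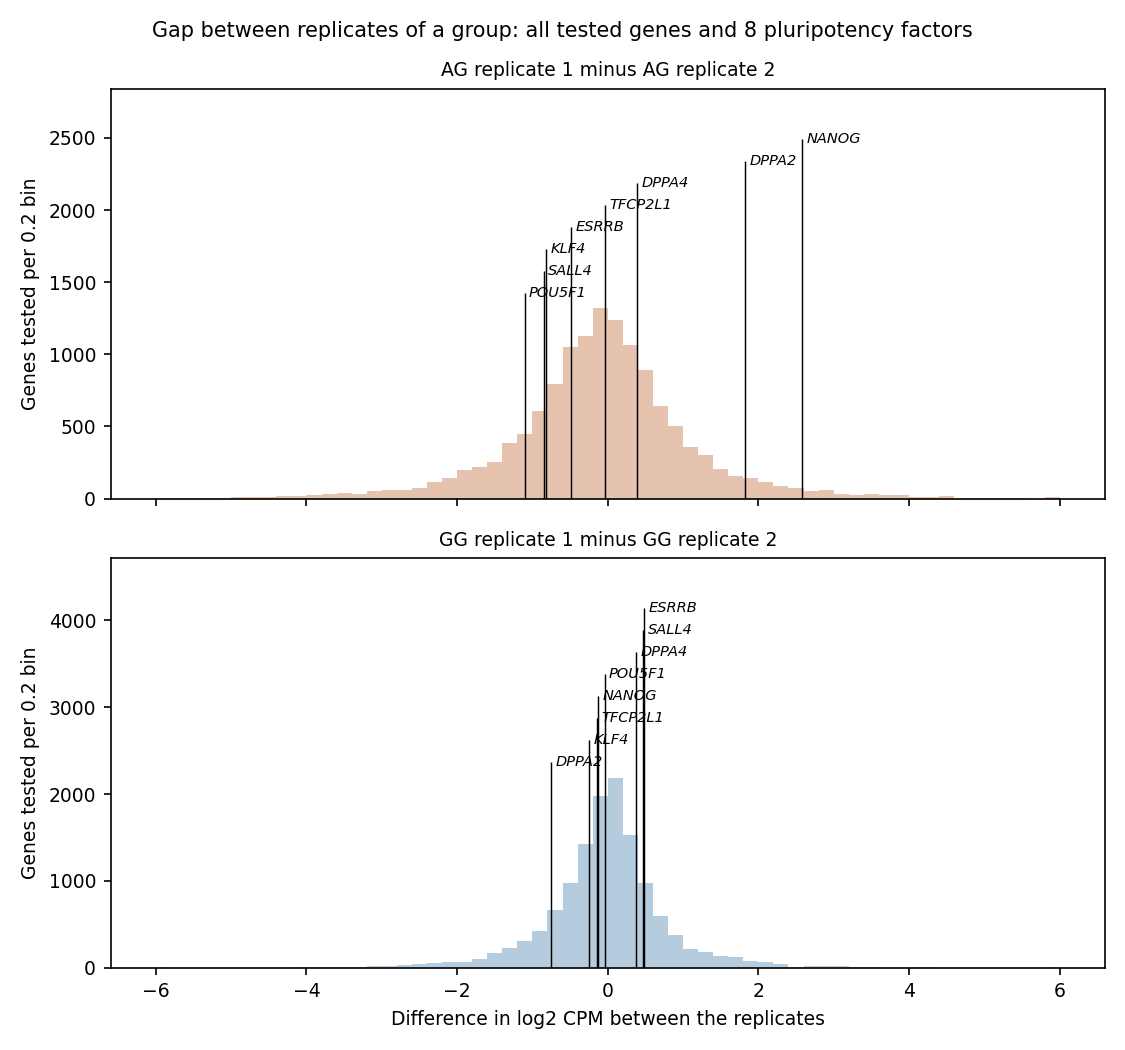
Difference in log2 CPM between replicate 1 and replicate 2 of AG (top) and GG (bottom) for all 13227 tested genes (bars, genes per bin) and the 8 factors (vertical lines, whose heights only space the names). NANOG at 2.58 and DPPA2 at 1.82 lie in the right tail of the AG panel, and all 8 factors lie within 1 of zero in the GG panel.

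The genes whose pattern over the 4 libraries was most like that of POU5F1 and of NANOG were taken from 5941 other tested genes with a symbol and a mean of at least 10 CPM, by Euclidean distance between mean-centred log2 CPM. For POU5F1 they included GSS, which makes glutathione (distance 0.07), and PPP2R5C, a phosphatase subunit (0.08), and 61 genes lay within 0.25. PPP2R5C, for example, stood at 76.7 and 158 CPM in AG (replicates 1 and 2) and at 202 and 195 CPM in GG. For NANOG they were TNRC6B, of microRNA silencing (distance 0.22), NSD3, a histone methyltransferase (0.35), and TMEM54, a membrane protein (0.39). TNRC6B was the 1 gene within 0.25, at 14.96 and 2.84 CPM in AG (replicates 1 and 2) and at 14.9 and 14.0 CPM in GG. With 4 libraries, such likeness is a description and shows no shared control.

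Other genes of the pluripotency network were read from 3 lists, of which 27 of 44 genes had a row and 17 were tested. Over these lists, 2 rose in GG, 3 were higher in AG, and 12 did not pass. With edgeR, 6.34% of all tested genes were called as higher in GG and 6.58% as higher in AG. SOX2, DPPA3, DPPA5, KLF5, LIN28A and TDGF1 are among those not analysed here. Counts with DESeq2 below are to be read beside 25.2% of all tested genes called, 12.2% as higher in GG and 13% as higher in AG. The share of all genes at an unadjusted p under 0.05 is not given here.

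The list of other naive genes had 6 tested of 14, with 1 higher in GG, 1 higher in AG and a median log2 fold change of -0.59. At an unadjusted p under 0.05, and also with DESeq2, 2 were higher in GG and 3 in AG. TBX3, a T-box factor, stood at 1.496 and 1.32 CPM in AG and 11.5 and 6.14 CPM in GG (log2 fold change 2.64 ± 0.60, adjusted p = 0.0455). Its call was lost with the replicate block (adjusted p = 0.0536, in a range of 0.00130 to 0.274). KLF17, a Krüppel-like factor of primate naive cells, went the other way, from 34.2 and 21.4 CPM in AG to 2.37 and 0.614 CPM in GG (log2 fold change -4.23 ± 0.76, adjusted p = 0.0294). By group means KLF17 was 18.6-fold higher in AG, and without GG replicate 1 or 2 the log2 fold change was -5.49 or -3.58. DNMT3L, a cofactor of DNA methylation chosen after its values were seen, stood at 61.5 and 197 CPM in AG beside 390 and 418 CPM in GG, which did not pass (adjusted p = 0.102, in a range of 0.00178 to 0.316). DNMT3L did pass with the replicate block (adjusted p = 0.0498), with DESeq2 (0.0137), without a filter (0.0276) and without AG replicate 1 or 2 (0.0286 and 0.00178).

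Among genes shared by pluripotent states, 4 of 16 were tested, 0 were called as higher in GG and 2 as higher in AG, with a median log2 fold change of -1.42. At an unadjusted p under 0.05 and with DESeq2 the counts were also 0 and 2. L1TD1, an RNA-binding protein of pluripotent cells, stood at 2020 and 1744 CPM in AG and 619.9 and 576 CPM in GG (log2 fold change -1.65 ± 0.21, adjusted p = 0.0163). MYC, a growth-promoting factor, stood at 49.2 and 50.6 CPM in AG and 12.7 and 6.51 CPM in GG (log2 fold change -2.38 ± 0.44, adjusted p = 0.0299).

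Of 14 genes of the primed state, the condition of the epiblast after implantation, 7 were tested and the median log2 fold change was 0.01. DNMT3B, a de novo DNA methyltransferase, was the 1 gene called, at 0.570 and 2.34 CPM in AG and 48.6 and 38.5 CPM in GG (log2 fold change 4.87 ± 0.72, adjusted p = 0.0208). Without AG replicate 1 or 2 its log2 fold change was 4.22 or 6.21. With edgeR 0 were called as higher in AG, beside 1 at an unadjusted p under 0.05 and 1 with DESeq2. ZIC2, THY1 and FGF2 had 0 counts in all 4 libraries. OTX2, a homeobox factor chosen after its values were seen, had its low value in AG replicate 2, as NANOG did, at 78.2 and 7.06 CPM in AG and 121 and 59.7 CPM in GG. It was not called (adjusted p = 0.514), but was called without AG replicate 1 (adjusted p = 0.0136, in a range of 0.0136 to 0.875).

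**Figure D5:**
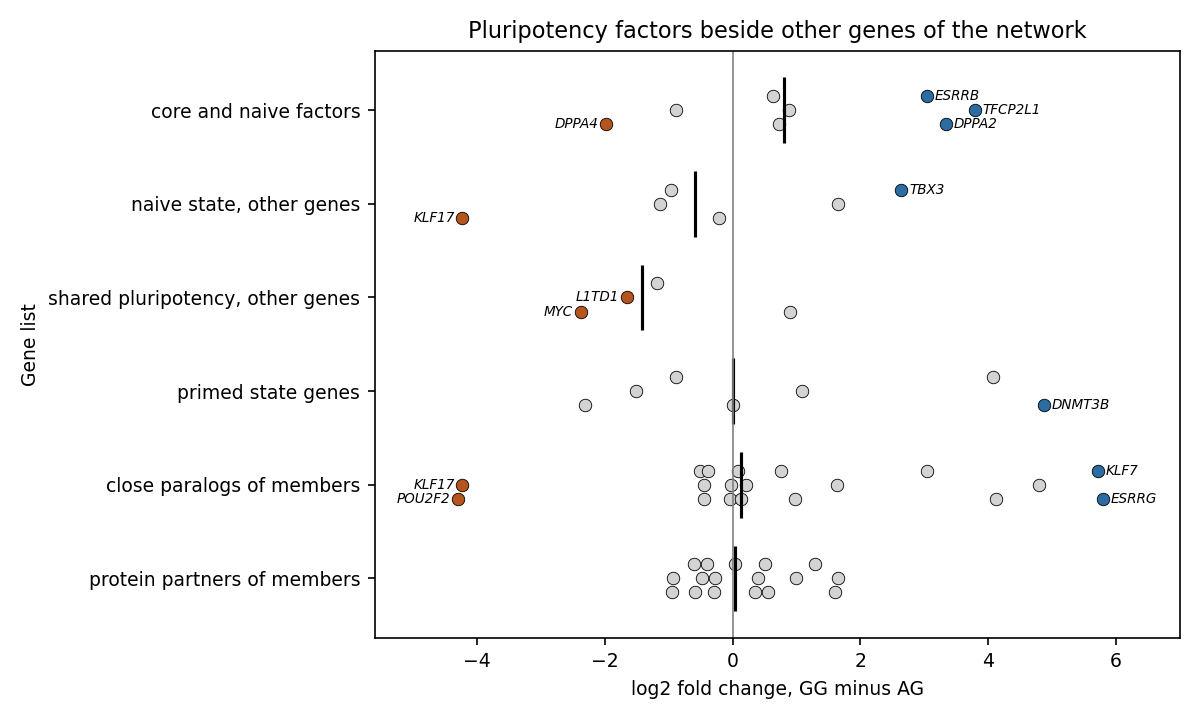
Log2 fold change, GG minus AG, of each tested gene (points) in the 8 core and naive factors and 5 lists, with a bar at the median of each row and colour and names for called genes. The medians run from -1.42 for genes shared by pluripotent states to 0.80 for the 8 factors, and called genes lie on both sides of zero in 3 of the 6 rows, with KLF17 drawn in both of its lists.

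Close paralogs of the factors gave 4 calls among 19 tested, to be read beside 12.9% of all tested genes called with edgeR. The calls comprised 2 paralogs with more RNA in GG and 2 with more in AG. The median log2 fold change of the 19 was 0.13. At an unadjusted p under 0.05, 5 were higher in GG and 2 in AG, and with DESeq2 the counts were 4 and 2. ESRRG, the paralog of ESRRB, rose with it, from 0.784 and 0.254 CPM in AG to 26.1 and 30.4 CPM in GG (log2 fold change 5.80 ± 0.66, adjusted p = 0.0125). Without AG replicate 1 or 2 its log2 fold change was 6.77 or 5.14. ESRRA, named after its values were seen, stood at 0.784 and 3.40 CPM in AG and 3.28 and 5.05 CPM in GG, which did not pass (adjusted p = 0.464). KLF7 had 3 counts over both AG libraries and 237 over both GG libraries. After scaling for library size, the ratio of these summed counts was 52.9. Its 95% binomial interval of 17.9 to 258 covers counting error only and not the spread between replicates. The edgeR log2 fold change of KLF7 was 5.72 ± 0.87 (adjusted p = 0.0215). POU2F2, a POU-domain relative of POU5F1 known from B cells, stood at 5.13 and 3.45 CPM in AG and 0.142 and 0.273 CPM in GG (log2 fold change -4.30 ± 0.78, adjusted p = 0.0294). KLF17, given above, was the other paralog higher in AG. The TFCP2L1 relatives TFCP2 and UBP1, named after their values were seen, had log2 fold changes of -0.45 ± 0.38 and -0.44 ± 0.43 and were not called (adjusted p = 0.458 and 0.532). GRHL1, GRHL2 and GRHL3 of the same list, also named after their values were seen, had -0.39 ± 0.48, 4.79 ± 1.40 and 1.64 ± 0.69. They were not called (adjusted p = 0.615, 0.0772 and 0.168). GRHL2, at 0.997 and 0 CPM in AG and 9.64 and 16.6 CPM in GG, was called with DESeq2 (adjusted p = 0.000578) and without a filter (0.0135).

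The 8 genes called in these lists kept their sign in every alternative that gave a value, and 0 of 8 stayed called without GG replicate 1 (edgeR adjusted p = 0.0603 to 0.274) or without GG replicate 2 (0.0787 to 0.193).

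Among 17 proteins that work with the factors, all of them tested, 0 were called with edgeR in the fit used throughout. At an unadjusted p under 0.05 the count was 4, and with DESeq2 it was 2, beside 25.2% of all tested genes with DESeq2. The log2 fold changes of the 17 had a median of 0.04. CHD4, the remodelling enzyme of the NuRD complex that SALL4 recruits, stood at 59.4 and 43.1 CPM in AG and 64.3 and 41.1 CPM in GG (log2 fold change 0.04 ± 0.36). CBFA2T2, a partner of PRDM14, stood at 26.1 and 15.7 CPM in AG and 38.9 and 44.2 CPM in GG (0.99 ± 0.38, adjusted p = 0.137). The 2 genes called with DESeq2, RBBP7 and MBD3 of the NuRD complex, had edgeR adjusted p-values of 0.1003 and 0.0999 and log2 fold changes of 1.65 ± 0.54 and 1.60 ± 0.53. Both were called with edgeR without a filter (adjusted p = 0.0269 and 0.0331), without AG replicate 1 (0.00495 and 0.0357) and without AG replicate 2 (0.0230 and 0.00266), and RBBP7 also with the replicate block (0.0381). Their highest values over the alternatives were 0.321 and 0.329.

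Some markers of other lineages and stages were also called between GG and AG, and others were not. The counts are to be read beside 6.34% of all tested genes called as higher in GG and 6.58% as higher in AG. Of 11 trophectoderm markers tested, 6 were higher in GG and 0 in AG (0 also at an unadjusted p under 0.05 and with DESeq2), and their summed level was 27.1 to 64.1 CPM in AG and 466 to 889 CPM in GG. GATA2, ELF5 and TEAD3 were at 0 counts in AG, and ELF5 and TEAD3 in GG. Among the 5 tested markers not called were GATA3 and TFAP2A, with log2 fold changes of -0.06 ± 1.04 and -1.40 ± 1.14. CDX2, TEAD4, KRT8 and DLX5 were not analysed here. For primitive endoderm, 4 of 8 were higher in GG, at 138 to 203 CPM in AG and 580 to 644 CPM in GG summed, with CTSE among those at 0 in AG. Without APOE, named after its values were seen like the other genes singled out here, the sums were 138 and 200 CPM in AG and 198 and 194 CPM in GG, and the lineage factors GATA4 and GATA6 were not called. Genome activation markers, which include ZSCAN4, were higher in AG in 7 of 7, at 6176 to 8519 CPM in AG and 1769 to 2366 CPM in GG summed. KHDC1L held most of these reads, and the other 6 summed to 3130 and 2110 CPM in AG and 48.6 and 52.1 CPM in GG. Oocyte markers were higher in GG in 3 of 8, at 334 to 453 and 786 to 991 CPM summed. FIGLA was at 0 counts in AG and in GG replicate 2. Of the 3, KHDC3L stood at 17.2 and 13.7 CPM in AG and at 285 and 480 CPM in GG. OOEP held most of the AG sum and was not called, at 425 and 312 CPM in AG and 368 and 478 CPM in GG. NLRP5 was not called either, with a log2 fold change of -2.16 ± 1.16. Blood cell markers were higher in AG in 2 of 5, at 69.1 to 155 and 14.8 to 17.5 CPM summed, with CD3E among those at 0 in GG. Without PTPRC the sums were 14.4 and 3.25 CPM in AG and 8.31 and 14.1 CPM in GG, and LYZ had its higher values in GG (log2 fold change 3.13 ± 0.77, adjusted p = 0.0533). Cumulus cell markers summed to at most 10.9 CPM and sperm markers to at most 0.499 CPM in any library. The part of these markers in the values of TFCP2L1, ESRRB, DPPA2 and DPPA4 was not tested. In bulk libraries, fewer cells of a type cannot be told apart from less RNA per cell.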

How the data were processed

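The submitters' processing notes list Trim Galore, Salmon 0.12.0, STAR 2.6.0c and, as genome build, rheMac8, without saying what each did. Low-input SMARTer cDNA was amplified, per the labels' protocols. The deposited table holds the authors' estimated counts for each Ensembl gene, unscaled. Which annotation release, strand setting or filter they used is not given in the sources used here. Identifiers gave a symbol for 14654 of 21314 genes. Rounded counts went into edgeR 4.0.16 (R 4.3.3) with its quasi-likelihood test: filterByExpr (by group; at least 10 counts, 15 in total), TMM scaling, the group as the only term, and Benjamini-Hochberg adjustment over all 13227 tested genes. Standard errors are those implied by the F statistic, and group values are over n = 2 libraries. The same code was tested on simulated data. Log2 CPM used a prior count of 2. Intervals of count ratios are exact 95% binomial intervals that cover counting error only. DESeq2 1.42.0 was an alternative, as were other scalings, filters, thinning, a replicate block and leaving out each library. The factors and gene lists were chosen with earlier results of these data known. The text names all factors, up to 5 called genes with the smallest p per direction in each network list, and the 3 genes most like POU5F1 and NANOG, except a few items that are not reported here. Genes named outside this rule were chosen after their values were seen, CHD4 and CBFA2T2 among them.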

Additional observations from a re-analysis of the deposited data

How the results depend on the processing

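Log2 fold changes of the 8 factors kept their sign in all alternatives that gave a value except NANOG's without AG replicate 2 (-0.18, in a range of -0.18 to 2.43 with 1 library left out). TFCP2L1, at a mean under 10 CPM, had no value with that minimum. No alternative that kept all 4 libraries changed the call of a factor. The count of factors called was 4, and leaving out 1 library gave 0 to 6. Over all genes, the count was 1709, 3333 with DESeq2, 2609 without a filter, and 69 to 3942 with 1 library left out. Other pluripotency genes called numbered 5, 10 with DESeq2, and 0 to 8 with 1 library left out. The cause of these shifts was not tested, except that a filter changes how many genes are tested. The replicate numbers name no shared source in the labels. With the replicate block, 4 factors and 1697 genes were called, TBX3 lost its call and DNMT3L and RBBP7 gained one, and AG replicate 1 and GG replicate 1 deviated together only weakly (Pearson r = 0.10 and Spearman rho = 0.13 across genes, which are not independent replicates). Thinned to the shallowest library, the factors called were again 4, beside 14.9% of 12524 tested genes. The DPPA2 to DPPA4 difference was then 5.50 on the log2 scale. Summing identifiers was not run, since each factor had 1. Depth limits TFCP2L1 most, with 16 and 23 counts in AG.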
